A study of Homo sapiens with 9 samples.

Results

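The 4314 regions described here were found as accessible chromatin in the IGF2BP1 knockout of HEK293T cells and in none of the other 3 lists of the study. They were chosen by presence alone. Peaks of the 4 deposited lists that shared at least 1 bp were merged into 71597 regions, and regions that overlapped a peak of the IGF2BP1 knockout list and of no other list were kept. They made up 6.03% of all regions, and 8.47% of the 50917 peaks of the IGF2BP1 knockout list. Each one holds exactly 1 peak. Since absence from the other lists is what defines them, the presence of these regions in the knockout is a description and not a result.

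ATAC-seq, which marks open DNA by insertion of the Tn5 transposase, was run on untreated HEK293T, a cell line from human embryonic kidney. All knockouts came from transient transfection with plasmids carrying guide RNAs and GFP, followed by sorting of single GFP-positive cells, and 1 clone was taken per knockout. The groups were the IGF2BP1 knockout (3 libraries, from batches 1, 2 and 3), the IGF2BP2 and IGF2BP3 knockouts (2 libraries each, from batches 2 and 3) and a control made in parallel with a non-targeting guide (2 libraries, from batches 2 and 3). Batch 1 is thus behind the IGF2BP1 knockout list alone, and clone, batch 1, number of libraries and genotype cannot be told apart for any region below. Each group has 1 list of positions without heights, so no spread between replicates could be measured and no test was made. Read depth is unknown. In bulk libraries, a site open in few cells and a site weakly open in all cells cannot be told apart.

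IGF2BP1, IGF2BP2 and IGF2BP3 are a family of oncofetal RNA-binding proteins, active in embryonic tissue and again in many tumours, that bind and stabilise messenger RNAs, among them m6A-modified ones. They act on RNA, largely in the cytoplasm, and are not known as DNA-binding factors. Accessible sites away from gene starts are mostly enhancers and insulators, which vary between cell states more than promoters do.

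The regions of the IGF2BP1 knockout list alone that lie over the start of a gene are shown first, because most of their starts lack the CpG-rich sequence that is usual under peaks found in all 4 lists. RefSeq start sites (GRCh38.p14) were at hand for 15843 coding genes, 1 start per gene, and 56 of them (0.353%) lay under a region of the IGF2BP1 knockout list alone. The 250 bases before the start are printed for 6 of these genes, 5′ to 3′ on the strand of the gene, with motif matches in capitals. These 6 are among the genes named further below, are not the widest of the 56, and do not stand for the 56. They are EPHA1, an ephrin receptor tyrosine kinase (chr7:143408857-143409106, minus strand), and CDH8, a cadherin of neurons (chr16:62035187-62035436, minus strand). The next are SP5, a zinc finger factor induced by Wnt signalling (chr2:170715087-170715336, plus strand), and SCN1A, a neuronal sodium channel (chr2:166149162-166149411, minus strand). The last are EMCN, an endothelial sialoglycoprotein (chr4:100518023-100518272, minus strand), and DCC, the netrin receptor of growing axons (chr18:52339947-52340196, plus strand).
EPHA1: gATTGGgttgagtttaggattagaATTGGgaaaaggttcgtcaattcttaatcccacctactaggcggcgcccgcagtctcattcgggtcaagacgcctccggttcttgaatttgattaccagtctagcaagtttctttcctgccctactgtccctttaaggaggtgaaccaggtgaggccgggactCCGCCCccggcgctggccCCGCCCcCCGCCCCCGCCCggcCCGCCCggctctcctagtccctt
CDH8: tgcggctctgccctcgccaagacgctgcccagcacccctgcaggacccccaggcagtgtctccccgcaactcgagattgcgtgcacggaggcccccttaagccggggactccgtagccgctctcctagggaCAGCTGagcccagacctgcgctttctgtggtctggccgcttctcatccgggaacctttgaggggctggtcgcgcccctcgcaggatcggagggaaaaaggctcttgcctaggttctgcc
SP5: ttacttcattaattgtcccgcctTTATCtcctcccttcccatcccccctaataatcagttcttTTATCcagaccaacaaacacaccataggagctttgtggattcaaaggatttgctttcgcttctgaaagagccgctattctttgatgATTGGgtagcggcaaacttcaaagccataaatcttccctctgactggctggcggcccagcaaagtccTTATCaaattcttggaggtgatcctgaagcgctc
SCN1A: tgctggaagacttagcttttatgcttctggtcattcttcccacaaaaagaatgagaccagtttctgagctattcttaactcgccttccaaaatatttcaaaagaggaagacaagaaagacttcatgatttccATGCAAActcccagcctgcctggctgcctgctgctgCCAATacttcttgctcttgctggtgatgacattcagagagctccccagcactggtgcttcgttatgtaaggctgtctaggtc
EMCN: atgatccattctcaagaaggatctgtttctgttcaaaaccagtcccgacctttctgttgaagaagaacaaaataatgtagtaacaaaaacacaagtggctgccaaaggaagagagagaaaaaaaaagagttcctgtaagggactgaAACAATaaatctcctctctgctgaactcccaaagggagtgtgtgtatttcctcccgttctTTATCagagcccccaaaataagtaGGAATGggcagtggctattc
DCC: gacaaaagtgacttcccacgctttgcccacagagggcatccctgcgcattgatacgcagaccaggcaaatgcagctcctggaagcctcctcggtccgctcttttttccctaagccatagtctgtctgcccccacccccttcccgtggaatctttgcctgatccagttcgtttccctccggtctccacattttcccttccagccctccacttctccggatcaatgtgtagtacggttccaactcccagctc

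These 6 windows differed widely in composition. The CDH8 window had a GC content of 66.0% and 17 CpG dinucleotides, and the EPHA1 window 59.2% and 17. In the SCN1A and EMCN windows there were 2 CpG dinucleotides each, at 45.6% and 41.2% GC. The DCC window, with 56.0% GC, held no match to any motif searched. The EPHA1 window held 7 matches, of which 5 were GC boxes in its last 70 bases, and the SP5 window held 4, of which 3 were GATA motifs.

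Over all 56 start sites, the median GC content of these windows was 48.4%, against 66.4% for the 9203 coding starts under regions of all 4 lists and 62.0% for all 15841 coding starts whose window held no unknown base. The ratio of observed to expected CpG had a median of 0.395, against 0.846 and 0.718. It exceeded 0.6, a usual mark of a CpG island, in 17 of the 56 windows (30.4%), in 88.7% of the windows under regions of all 4 lists and in 18.5% of the 5929 windows under no peak. The 73 start sites under regions of the IGF2BP2 knockout list alone had a like median GC content of 48.8%, whereas it was 64.4% for the 42 of the IGF2BP3 knockout list alone and 62.4% for the 22 of the control list alone. CpG-poor starts were thus also found under regions of the IGF2BP2 knockout list alone, where 20.5% of windows exceeded 0.6.

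Motifs were searched on both strands, with matches of different motifs allowed to overlap. They were the GC box GGGCGG, the NFY motif CCAAT, the ETS motif CCGGAA, the octamer TTTGCAT and the motif GATAA of GATA factors. Also searched were the SOX motif AACAAT, the TEAD motif GGAATG, the E-box CAGCTG, the AP-1 motif TGANTCA, the CRE motif TGACGTCA and the CTCF core CCGCGNGG. The longer interferon response element and NRF1 motif, which hold free bases, were searched too. A GC box was found in 23 of the 56 windows (41.1%), against 54.4% of all coding starts and 73.4% of those under regions of all 4 lists. ETS motifs were in 1 window (1.79%), against 19% of all coding starts, and NRF1 motifs in 0, against 7.12%. The octamer was in 7 windows (12.5%), against 3.55%, and GATA in 14 (25%), against 17.1%. Starts under regions of the IGF2BP2 knockout list alone and starts under no peak were closer for most of these motifs. GC boxes were in 23.3% and 25.4% of them, ETS motifs in 5.48% and 7.08%, NRF1 motifs in 1.37% and 1.13%, GATA in 34.2% and 27.4%, and the octamer in 6.85% and 5.03%. The interferon response element was in 3 windows (5.36%), against 2.78% of all coding starts and 3.83% of those under no peak. It was in 4.11%, 2.38% and 4.55% of starts under regions of the IGF2BP2 knockout, IGF2BP3 knockout and control lists alone. A match is a string of letters and not a bound site.

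Most regions of the IGF2BP1 knockout list alone lay far from genes' starts. Only 99 of them (2.29%, Wilson 95% interval 1.89 to 2.79, which covers counting over regions only) were within 1 kb of a coding start site, against 29.9% of the 29686 regions in all 4 lists. Another 7.51% lay 1 to 10 kb away, 44.9% lay 10 to 100 kb away, and 41.5% more than 100 kb away. The median distance was 78.0 kb, against 98.7 kb for regions of the IGF2BP2 knockout list alone, 94.9 kb for the IGF2BP3 knockout list alone, 47.8 kb for the control list alone and 21.8 kb for regions in all 4 lists. By this measure the regions lay between those of the control and those of the other knockouts. With both ends of all annotated genes counted, 447 regions (10.4%, 9.49 to 11.3) were within 1 kb of a gene end, against 8.63%, 11.6% and 14.8% in the same order of other lists.

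**Figure D1:**
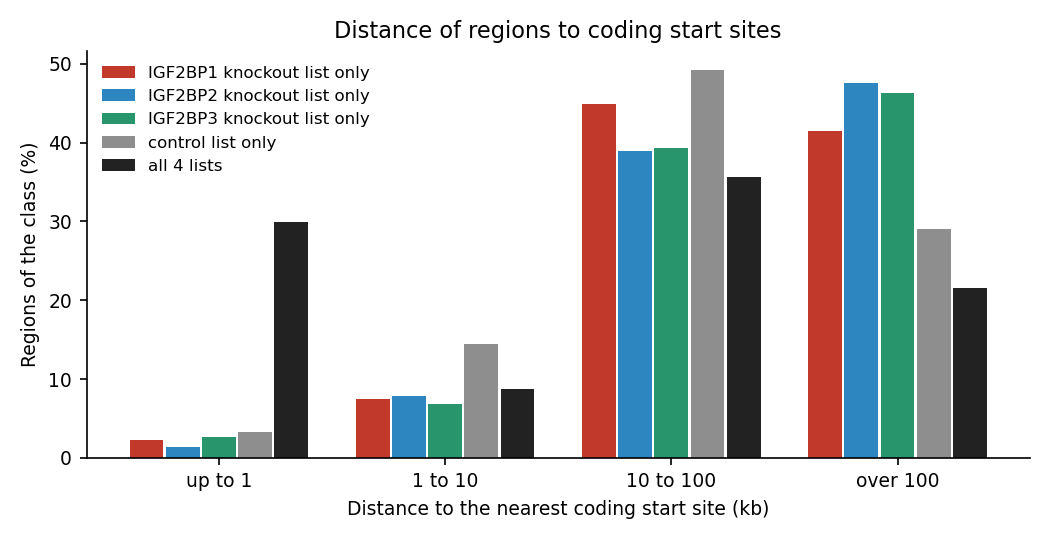
Share of the regions of each class (y axis, %) by distance to the nearest coding start site (x axis, kb), for regions held by 1 list only and for regions in all 4 lists. Regions of the IGF2BP1 knockout list alone (red) are rare within 1 kb (2.29%, against 29.9% of regions in all 4 lists), and 41.5% of them lie more than 100 kb away.

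Coding gene bodies held 2209 of the regions (51.2%), genes of other kinds alone held 610 (14.1%), and 1495 (34.7%, 33.2 to 36.1) lay outside annotated genes. The share in coding gene bodies was 42.2% for the IGF2BP2 knockout list alone, 42.1% for the IGF2BP3 knockout list alone and 55.6% for the control list alone. The table used gives no exons, so exonic and intronic positions were not separated.

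The peaks were narrow for their list, yet wide beside the peaks held by other lists alone. Their median width was 602 bp (quartiles 482 and 776 bp, range 246 to 2243 bp), against 467 bp in the IGF2BP2 knockout list alone, 485 bp in the IGF2BP3 knockout list alone and 454 bp in the control list alone. The IGF2BP1 knockout list as a whole also had the widest peaks, with a median of 834 bp against 651 to 771 bp in the others. Placed within their own list, the median peak stood at percentile 22, close to 21.9 and 20.6 for the other knockouts and above 11.9 for the control. Within the IGF2BP1 knockout list, median width rose with the number of other lists holding the region, from 602 bp with none to 652 bp with 1, 711 bp with 2 and 988 bp with 3. Of the regions, 858 (19.9%) were wider than the median peak of their list, and 416 (9.64%) were wider than 1000 bp, against 1.75%, 2.97% and 1.55% of those held by the IGF2BP2 knockout, IGF2BP3 knockout and control lists alone.

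**Figure D2:**
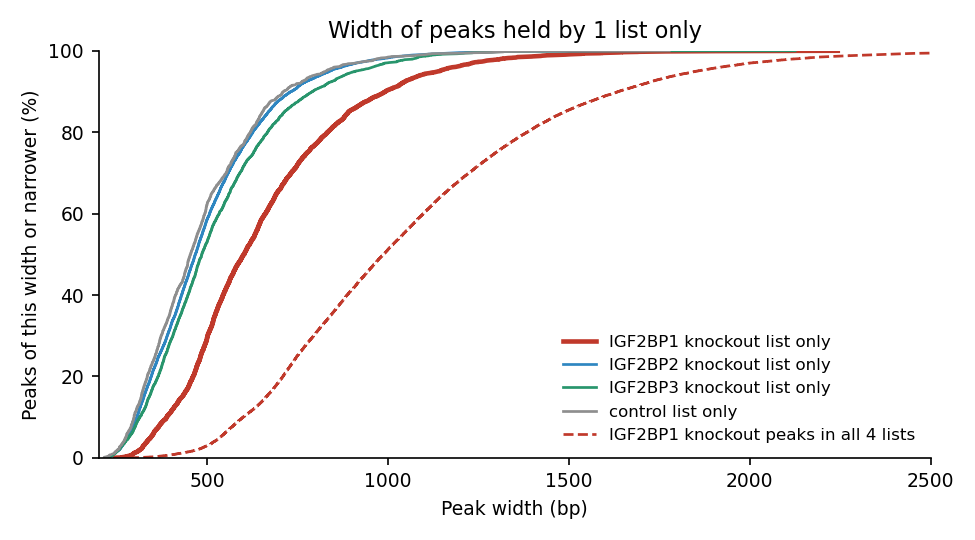
Cumulative share of peaks (y axis, %) up to a given width (x axis, bp) for peaks held by 1 list only, and for IGF2BP1 knockout peaks in regions of all 4 lists (dashed). The IGF2BP1 knockout curve (thick red, median 602 bp) lies to the right of the other lists' curves (454 to 485 bp) and to the left of the dashed curve (988 bp).

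The 1 bp rule decided few members. Only 5 regions had another list's peak within 50 bp, the closest at 7 bp, and only 1 peak of the IGF2BP1 knockout list missed membership with an overlap of 50 bp or less, of 26 bp. Another list's peak lay within 1 kb of 193 regions, and the other 4121 were at least 1 kb away. The median distance to the nearest peak of another list was 13.8 kb. At 113 regions (2.62%) it exceeded 100 kb, against 6.2% and 4.71% of the regions of the IGF2BP2 and IGF2BP3 knockout lists alone. Another region of the same kind lay within 10 kb of 164 regions (3.8%), against 9.64%, 5.22% and 2.4% for the IGF2BP2 knockout, IGF2BP3 knockout and control lists alone, and the median distance between neighbours was 165 kb. This measure depends on the number of regions in each class.

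The regions were unevenly spread over chromosomes. Chromosome 7 held 410 of them (9.5%, 8.66 to 10.4), 2.08 times its share of all regions. Chromosome 11 held 294 (6.82%, 1.69 times) and chromosome 3 held 474 (11%, 1.55 times). These 3 chromosomes, the ones at 1.5 times or more, carried 27.3% of the regions but 15.7% of all regions of the study. Which chromosomes pass 1.5 times depends on the reference: against regions in all 4 lists, chromosomes 7 (2.01), 3 (1.72), 13 (1.66) and 4 (1.54) did and chromosome 11 (1.41) did not. With only the widest peaks of each list, chromosome 11 stood at 1.3 times, below chromosomes 4 (1.37) and 2 (1.31). At the other end, chromosome 17 held 33 regions (0.765%, 0.545 to 1.07), 0.201 times its share of all regions. Chromosome 19 held 60 (0.452 times), chromosome 15 held 55 (0.473 times) and chromosome 22 held 46 (0.581 times).

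Regions of the other lists alone differed from these on some chromosomes and not on others. Chromosome 7 held 2.76% of those of the IGF2BP2 knockout list alone, 3.51% of those of the IGF2BP3 knockout list alone and 5.44% of those of the control list alone, against 4.56% of all regions. Chromosome 17 held 3.21% and 3.76% of them, and 5.51% of those of the control list alone. Chromosome 11 held 0.89% of those of the IGF2BP2 knockout list alone, but 6.13% of those of the IGF2BP3 knockout list alone, and 5.23% of those of the control list alone. The low share on chromosome 19 was shared by the other knockouts, with 1.85% for the IGF2BP2 and 1.2% for the IGF2BP3 knockout list alone. It was 3.08% of all regions and 4.45% for the control list alone. On chromosome 22 the same shares were 1.61%, 1.31%, 1.83% and 2.68%, against 1.07% for the IGF2BP1 knockout list alone. On chromosome 15 they were 2.13%, 3.54%, 2.7% and 2.47%, against 1.27%. Away from gene ends, the ratios to all regions were 2.18 on chromosome 7, 1.85 on chromosome 11, 1.44 on chromosome 3 and 0.217 on chromosome 17.

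**Figure D3:**
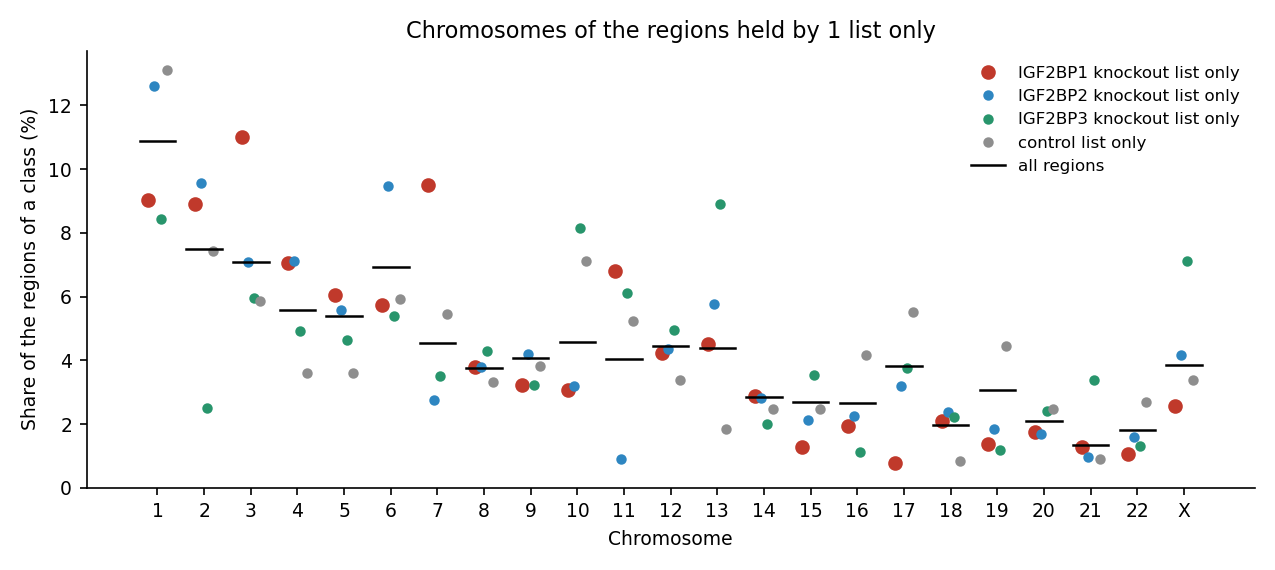
Share of regions (y axis, %) on each chromosome (x axis) for regions held by 1 list only (points), with the share of all 71597 regions as black bars. The IGF2BP1 knockout points (large, red) stand at 9.5% on chromosome 7 and 11% on chromosome 3, above the bars, and at 0.765% on chromosome 17, below it.

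The share of each chromosome's regions held by the whole IGF2BP1 knockout list includes the regions chosen here (12.6% of those of chromosome 7, 10.2% of chromosome 11 and 1.21% of chromosome 17), so it is a description and no separate evidence. The list held 81.0% of the regions of chromosome 7 and 82.2% of those of chromosome 11, the only 2 chromosomes where it held more regions than the longer IGF2BP2 knockout list (74.5% and 69.8%). On chromosome 17 it held 65.5%, and this was the only chromosome of the 23 compared where it held fewer regions than the control list (67.2%), although its share was lower on chromosomes 13 (58.7%) and X (63.9%). On chromosome 3 it held 73.8%, below the 80.1% of the IGF2BP2 knockout list, and on chromosomes 19 and 22 it held 79.9% and 73.9%.

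**Figure D4:**
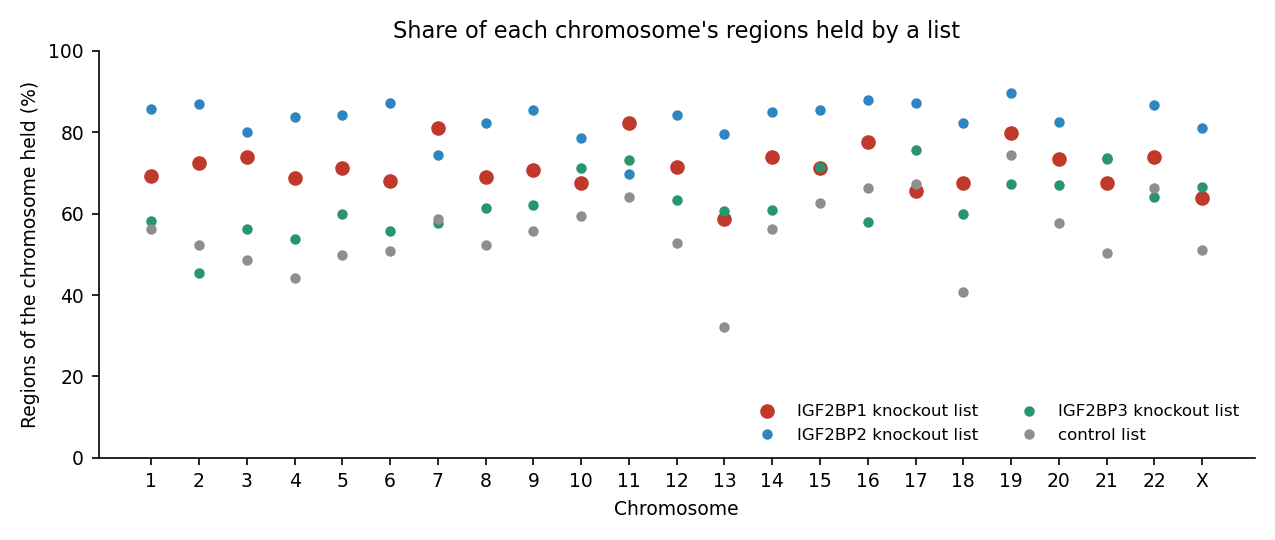
Share of each chromosome's merged regions (y axis, %) that a list holds, by chromosome (x axis), 1 point per list. The IGF2BP1 knockout list (large, red) lies above the IGF2BP2 knockout list on chromosomes 7 (81.0% and 74.5%) and 11 (82.2% and 69.8%), and below the control list on chromosome 17 (65.5% and 67.2%).

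In 10 Mb windows with at least 50 regions, the share of regions held by the IGF2BP1 knockout list alone exceeded the overall 6.03% in 15 of 16 windows of chromosome 7, 16 of 20 of chromosome 3 and 11 of 14 of chromosome 11. It also did so in 19 of 25 windows of chromosome 2 and 14 of 19 of chromosome 4. It did so in 0 of 9 windows of chromosome 17, and in none of chromosomes 15, 19 and 22. Over all 302 windows the median was 5.83%. The highest share was 28.3% (39 of 138 regions), from 10 to 20 Mb on chromosome 7, followed by 23% (43 of 187) from 190 to 200 Mb on chromosome 3. The third was 20.1% (31 of 154), from 100 to 110 Mb on chromosome 11. All 7 windows above 15% lay on these 3 chromosomes.

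At 1 Mb, windows were ranked by the number of regions of the IGF2BP1 knockout list alone, and 4 of those ranked highest are described. The window from 169 to 170 Mb on chromosome 3, with MECOM, held 10 such regions of 44 in all, beside 6 of the IGF2BP2 knockout list alone. The window from 181 to 182 Mb on chromosome 4, where TENM3 is the only coding gene, held 10 of 20, beside 2. The window from 235 to 236 Mb on chromosome 2, with SH3BP4 and AGAP1, held 9 of 31, beside 7. The window from 86 to 87 Mb on chromosome 11, with EED, PICALM and FZD4 among its genes, held 8 of 39, beside 5, and was named first among windows with that number.

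Of the 10 widest regions at least 1 kb from any other list's peak, the first, chr7:19106451-19108693 (2243 bp), lay 4.35 kb from TWIST1, a basic helix-loop-helix factor of mesenchyme. The next, chr9:109728885-109731013 (2129 bp), was inside PALM2AKAP2, a kinase anchoring protein. A region of 2105 bp at chr7:156999199-157001303 lay 3.55 kb from MNX1, a homeobox gene of motor neurons. Another of 1767 bp at chr7:13979778-13981544 was inside ETV1, an ETS-family factor, 4.87 kb from its start. The region at chr9:4421850-4423757 (1908 bp) was inside GLIS3, a zinc finger factor, with the nearest peak of another list 65.7 kb away. These widths stood between percentiles 95.5 and 99.2 of the IGF2BP1 knockout list.

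The remaining 5 were of 1740 to 2071 bp. The region at chr3:61648980-61651050 was inside PTPRG, a receptor tyrosine phosphatase, and that at chr3:98884834-98886573 inside DCBLD2. The region at chr16:1093387-1095250 overlapped C1QTNF8, 0.994 kb from its start. The region at chr12:93015305-93017131 overlapped 2 non-coding genes, 86.0 kb from EEA1. The region at chr4:181820634-181822403 was inside TENM3, a teneurin that guides neuronal connections, and the nearest peak of another list was 172 kb away.

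A region of the IGF2BP1 knockout list alone lay inside 1729 of 20037 coding genes (8.63%), of which 1364 held 1 such region and 9 held at least 6. GPC5, a cell-surface heparan sulfate proteoglycan, held 9 among its 67 regions, beside 8 and 7 of the IGF2BP2 and IGF2BP3 knockout lists alone. MECOM, a zinc finger factor of blood stem cells and kidney tubules, held 9 of 30, beside 5 and 0. TENM3 held 8 of 20, beside 2 and 2. AGAP1 held 7 of 24, beside 6 and 0, and WWOX 7 of 31, beside 3 and 0. CNTNAP2, a neuronal adhesion molecule, held 7 of 48, beside 4 and 7. GPC6 held 7 of 58, beside 4 and 5. RANBP2 held 7 of 48, beside 9 and 1, and 4 of these 7 regions also lie in EDAR or SH3RF3, which overlap it in the annotation. COBL, an actin nucleator, held 6 of 12, beside 1 and 0. AUTS2 was 1 of 8 genes with 5.

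The 10 genes were ranked by their regions of the IGF2BP1 knockout list alone, so a lead of that list is partly built in. In CNTNAP2, RANBP2 and AUTS2, another knockout list alone held as many regions or more. In the other 7 genes the IGF2BP1 knockout list alone held the most, by 1 region in GPC5 and AGAP1 and by 6 in TENM3. They are long genes, from 301 kb (COBL) to 2300 kb (CNTNAP2), where the median coding gene spans 24.1 kb. Of coding genes under 10 kb, 1.02% held such a region, of those from 10 to 100 kb 5.36%, of those from 100 kb to 1 Mb 31.6%, and of the 69 longer ones 63.8%.

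**Figure D5:**
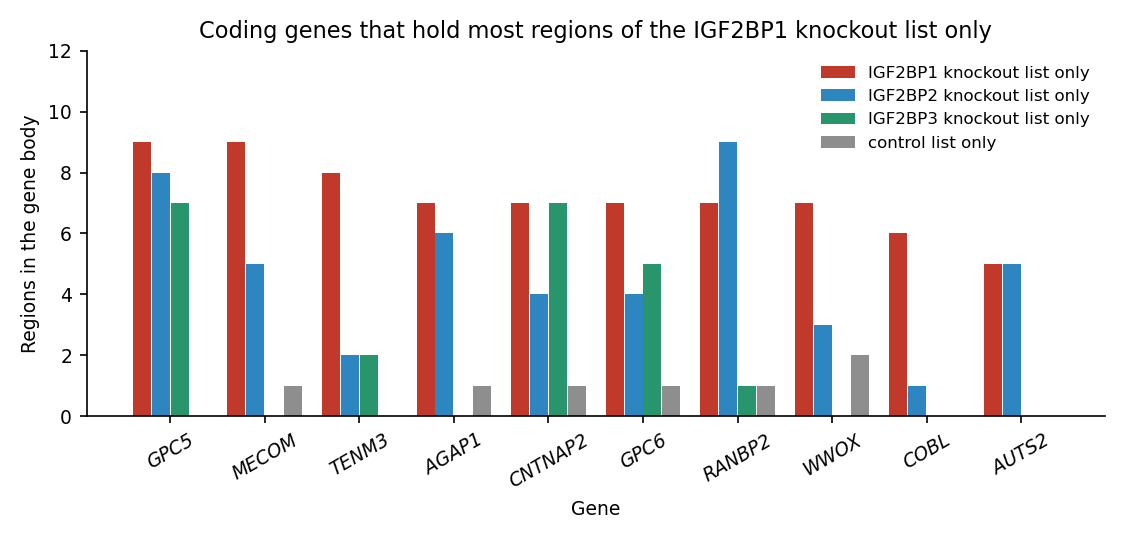
Number of regions held by 1 list only inside the gene body (y axis) for the 10 coding genes (x axis) with most regions of the IGF2BP1 knockout list alone. MECOM, TENM3 and COBL have 9, 8 and 6 in the IGF2BP1 knockout list alone (red), against at most 5, 2 and 1 in any other list alone. The genes were chosen by the red count.

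At 95 of 20037 coding genes (0.474%), such a region was within 1 kb of a gene end and no other list had a peak there. The same count was 189 for the IGF2BP2 knockout list, 104 for the IGF2BP3 knockout list and 50 for the control list. Of the 95 genes, 45 had no peak of another list anywhere in the gene body, a count not made for the other lists' genes. On chromosomes 3, 7 or 11 were 26 of the 95, and these chromosomes carried 27.3% of all regions of the IGF2BP1 knockout list alone. A start site was at hand for 72 of them, and at 39 it lay within 1 kb of the region.

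The widest of these gene-end peaks, of 1691 bp, was at DIRAS1, a small Ras-like GTPase (chr19:2720317-2722007). It was followed by EPHA1 (chr7:143407960-143409279, 1320 bp), CDH8 (chr16:62035018-62036250, 1233 bp) and SP5 (chr2:170714406-170715630, 1225 bp). All of these cover a start printed above except that of DIRAS1, which had none in the table. The nearest peak of another list was 116 kb from the CDH8 peak but 1.86 kb from the SP5 peak. GSG1L, an auxiliary subunit of glutamate receptors (1206 bp), and SCN1A (1205 bp, 20.1 kb from another list's peak) came next.

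The gene-end peaks of DLGAP4, a postsynaptic scaffold (1198 bp), and RASSF5, a Ras effector (1048 bp), lay over the 5′ end of the annotated gene. The start sites in the table lie further inside these genes, 166045 and 48845 bp from the peaks. Those of EMCN (1067 bp, 63.3 kb from another list's peak), PCDHA8 (1037 bp) and SPARCL1 (1025 bp) covered the start. PCDHA8 belongs to a cluster of similar protocadherin genes that share their last exons, whereas this peak lies over its own start. Whether reads from similar sequences of the cluster add to the peak was not tested. LOC107986837 (1188 bp), EPN3 (1139 bp), LOC122455342 (1028 bp) and PALM (990 bp) completed the 15 widest.

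The targeted gene itself showed no region of this kind. IGF2BP1, on chromosome 17, had a gene-end peak in all 4 lists, and 0 regions of the IGF2BP1 knockout list alone lay in the gene or within 1 Mb of it. IGF2BP2 held 1, of 681 bp, at chr3:185823438-185824118, inside the gene 2.3 kb from its start site and 0.409 kb from another list's peak, and 8 lay in or within 1 Mb of the gene. IGF2BP3 held 0, with 7 within 1 Mb. Over whole chromosomes, such regions were 1.21% of all regions on chromosome 17 (IGF2BP1), 9.33% on chromosome 3 (IGF2BP2) and 12.6% on chromosome 7 (IGF2BP3). Whether the counts near the 3 genes differ from these rates was not tested. Neither the edit nor the protein can be read from peak positions.

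Gene lists of several pathways were then counted, beside 8.63% of all coding genes with a region in the body and 0.474% with a gene-end peak in the IGF2BP1 knockout list alone. None of the 31 nucleic acid sensors and adaptors held a region in its body or at an end. Among 37 genes of interferon and NF-kappaB signalling, JAK1, the kinase shared by interferon receptors, held 1 (488 bp). Of 54 interferon-stimulated genes, MX2, an antiviral GTPase, and TRIM5, which restricts retroviral capsids, held 1 each (529 and 338 bp). The region in TRIM5 lay 59.8 kb from its start site. It also lies in TRIM34 and TRIM6-TRIM34, which overlap TRIM5 in the annotation, so it cannot be assigned to TRIM5 alone. Across these 3 lists, the number of genes with a gene-end peak in the IGF2BP1 knockout list alone was 0. Of the 78 cytosolic ribosomal protein genes, which are short (median 4.91 kb), 0 held a region, and gene-end peaks were in all 4 lists at 74. In the IGF2BP1 knockout list, 77 of the 78 had a gene-end peak, against 13702 of all 20037 coding genes.

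Of 46 adhesion and axon guidance genes, 19 (41.3%) held 38 regions in all, TENM3, CDH8 and SEMA6A, a semaphorin, the widest, and CDH8 alone had a gene-end peak of the IGF2BP1 knockout list alone. Their median length was 380 kb, and of all coding genes from 100 kb to 1 Mb, 31.6% held such a region, while 48.5% held one of the IGF2BP2 knockout list alone and 21.9% one of the IGF2BP3 knockout list alone. Of 40 neural lineage genes, 6 (15%) held 14 regions, of which CNTNAP2, a gene of 2300 kb, had 7 and the guidance receptors ROBO1 and ROBO2 had 2 each. DCC alone among them had a gene-end peak of this kind (chr18:52339662-52340340, 679 bp), 563 kb from the nearest peak of another list.

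Of 30 kidney developmental factors, MECOM held its 9 regions and PAX2, which specifies the nephric lineage, held 1 of 759 bp. A further region of 534 bp lay within 1 kb of an end of FOXC1, where other lists also had gene-end peaks. Of 29 leukemia stem cell and blood genes, 4 (13.8%) held 13 regions, namely MECOM with 9, RUNX1, a core blood factor, with 2, and TAL1 and CD38 with 1 each. The 9 MECOM regions were 521 to 989 bp wide and lay 0.711 to 34.3 kb from the nearest peak of another list. MECOM stands in both lists and spans 580 kb, and of all coding genes from 100 kb to 1 Mb, 31.6% held such a region. The median length of the 29 blood genes was 45.8 kb, against 24.1 kb for all coding genes. In the list of oncofetal genes and IGF2BP1 target RNAs, 1 of 21 genes held a region, MAPK4 (719 bp). In that of IGF2BP proteins and partners it was IGF2BP2, and in that of 16 m6A genes it was FTO, an m6A eraser (1309 bp).

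The lists were checked against markers of the labelled cell type. Of 9 genes listed for HEK293T, 5 had a gene-end peak in all 4 lists, and PAX2, PAX8 and LIN28B had none in any list. Of 4 genes listed for each of hepatocytes, T cells, myeloid, erythroid, muscle and endothelial cells, between 0 and 2 had one in all 4 lists. CD3E, of T cells (450 bp), and HBA1, of red cells (704 bp), had a gene-end peak in the IGF2BP1 knockout list alone. The CD3E peak lay outside the gene, 455 bp beyond its end at the higher position. That of HBA1 covered the gene's end at the lower position. No start site was at hand for either gene. HBA1 has a near-identical neighbour, HBA2, so its peak is uncertain. A gene-end peak is not a measure of expression, and the part of other cells in these values was not tested.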

How the data were processed

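The authors deposited 4 ATAC-seq peak lists, 1 per group, as whole-number chromosome positions without heights, scores or p-values, per the files themselves. The submitters' processing notes name fastp 0.24.1, BWA 0.7.17, MACS2 3.0.0, bedtools and the build GRCh38, with no roles. How libraries were combined, thresholds and read depth are not given in the sources used here, and how the transposase offset was treated is not given either, which can move peak edges by a few bases. Regions, distances and counts were computed with Python 3.11.15 (numpy 2.4.6, scipy 1.17.1). Building regions was tested on made-up peaks of known class, and bedtools found the same 4314 peaks without overlap. Genes came from the RefSeq table of GRCh38.p14 (20037 coding genes, mitochondrial genes left out), and start sites and promoter sequences from RefSeq for 15843 of them. No genome was used here, so sequence was described over promoter windows and not at region centres as planned. All 417 genes listed matched the table. A gene end means within 1 kb of either end of a gene. The members and gene lists were chosen with earlier results of these data known. Named were the targeted genes, the 10 widest regions with no peak of another list within 1 kb, the 15 widest gene-end peaks of the IGF2BP1 knockout list alone, the 10 genes and 5 windows of 1 Mb with most regions, and listed genes with such a peak or region (up to 5 and 3 a list). Of these, 1 window is not reported here. Equal values were ordered by name or position. Alternatives covered the overlap rule, joined gaps, distance to other lists, list length and the gene-end distance.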

Additional observations from a re-analysis of the deposited data

How the results depend on the processing

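The number of regions held by the IGF2BP1 knockout list alone stayed within 1.5 times of 4314 in each alternative tried. These were an overlap of at least 50% of the narrower peak, peaks up to 500 bp apart joined, no other list's peak within 1 kb, the 39194 widest peaks of each list (3621 regions), and chromosomes 1 to 22 and X only. Apart from the widest peaks, these alternatives keep most of the same regions by how they were made, so the count could move little. At equal list length, however, the order of the lists turned: 3621 was the fewest, against 4569 for the control list alone, 4451 for the IGF2BP2 knockout list alone and 4208 for the IGF2BP3 knockout list alone, where the full control list alone had 1416. A count does not say which regions: of the 3621, 2076 were among the 4314, and 2238 of the 4314 were too narrow to be kept. With the widest peaks, the median width was 762 bp, the share near a gene end 11.7%, and the shares on chromosomes 6, 7, 8, 11 and 17 were 6.74%, 8.42%, 3.12%, 5.66% and 1.08%. Relative to all regions built from those peaks, chromosome 7 stood at 1.8 times, chromosome 3 at 1.6, chromosome 11 at 1.3 and chromosome 17 at 0.266. The other 18 of 23 chromosome shares stayed within the Wilson interval of the value reported with the widest peaks, and the cause of the 5 moves was not tested. All 23 did so without regions within 1 kb of another list's peak, which keeps most of the same regions. The share near a gene end was 7.58% within 500 bp, 28.7% within 5 kb and 4.13% with protein-coding genes only, and 48.8% of regions lay outside protein-coding genes. Coding genes with a gene-end peak of this list alone numbered 174 within 5 kb. The shifts with gene-end distance and gene type follow from how those alternatives were made. No paired analysis was possible because each group has 1 list, and for the same reason no library could be left out. Depth is unknown, so absence from a list may mean a peak below its threshold.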

Other observations

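The regions farthest from any other list's peak were chosen after their values were seen. The farthest, at chr7:109445399-109446197 (799 bp), was 644 kb from another list's peak and 871 kb from the nearest coding gene, DNAJB9. It was followed by the region over the start of DCC (563 kb) and by chr16:61014824-61015240 (417 bp, 491 kb), 632 kb from CDH8. The fourth lay inside SHISA9 (chr16:13453922-13454181, 260 bp, 412 kb) and the fifth inside CNTN5, a neuronal contactin (chr11:99881218-99882020, 803 bp, 404 kb). Peaks of 260 and 417 bp are narrow for their list.

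At regions found in all 4 lists, none of them members, peaks of the IGF2BP1 knockout list were wider than control peaks. The median difference was 0.06 (log2) on chromosome 17, the lowest of the 23 chromosomes, 0.13 on chromosomes 7 and 11 and 0.17 on chromosome 3. The highest were chromosomes 13 and 18, at 0.19. Set against the mean of the other knockouts, this width difference and the log2 share of regions of the IGF2BP1 knockout list alone (over that of regions in all 4 lists) had a Pearson correlation of 0.62 and a Spearman correlation of 0.58 over 23 chromosomes. Without chromosomes 15 and 17, the 2 farthest from the median width difference, Pearson's value was 0.36, so the relation rests in part on those. The chromosomes share the same lists and peak caller, which gave both the widths and the members. The correlation is thus a description and no separate evidence, and no p-value is given.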
